A study of Mus musculus with 36 samples.

Results

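The change of the palatal transcriptome from E14.5 to E16.5 in mice without TGFβ3 was measured by RNA-Seq. The libraries were chosen by their titles, those of E16.5 TGFβ3-/- palates against those of E14.5 TGFβ3-/- palates, each age with 2 animals and each animal with its library run in 2 lanes. These are 8 of the 36 lane libraries and 4 of the 18 animals of the study, whose other groups are TGFβ3-/- at E15.5 and TGFβ3+/- and wild type (WT) at all 3 ages. All animals carried the C57BL/6 background, came from matings of TGFβ3+/- parents and gave palatal shelves as tissue, with poly(A) RNA sequenced from a kit that does not keep strand. TGFβ3-/- is a constitutive null genotype, so the loss was not limited to the palate. Whether a replicate was 1 embryo is not stated in the sources used here, and p-values therefore measure only the spread between these samples.

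The secondary palate forms from paired shelves that grow out of the maxillary processes, elevate above the tongue, meet at the midline and fuse, while the mesenchyme inside them ossifies and the surface differentiates into an oral and a nasal epithelium. TGFβ3 is a secreted growth factor made in the medial edge epithelium just before the shelves meet, and mice that lack it are born with a cleft palate. The comparison asks how far the maturation of bone, muscle and epithelium shows in RNA over this window in shelves without TGFβ3.

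Levels are given in FPKM, sequenced fragments scaled by transcript length and by the number of mapped fragments, as the mean of an animal's lanes with a value, first for replicate 1 and then for replicate 2. Differences are E16.5 minus E14.5 on the log2(FPKM + 1) scale, which understates the change of low genes, and a gene was called higher or lower at a Benjamini-Hochberg adjusted p under 0.05 from limma with a difference of at least 1. The deposited tables hold no counts, so depth is unknown, and the median half-width of a 95% interval of a locus was 12.3% to 18.8% of its FPKM over the 8 lanes. One library stood apart, that of E16.5 replicate 1, with 28818 and 30380 assembled loci in its lanes against 22486 to 24231 in the other 6, with 66.7% and 69.5% of them on exons against 74.5% to 78.5%, and with 4146 and 4587 loci inside introns against 1777 to 2296. Counts are therefore also given without it. Across 10364 genes measured in all 18 animals, levels correlated at r = 0.98 between the E14.5 animals, 0.97 between the E16.5 animals and 0.90 to 0.93 between animals of different age, as a description across genes, which are not independent. Lanes 1 and 2 carried E14.5 and lanes 6 and 7 carried E16.5, so age and lane cannot be told apart. In bulk tissue, fewer cells of a type and less RNA per cell cannot be told apart either.

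The targeted gene, Tgfb3 (NCBIM37, chromosome 12, 87397694 to 87419991, minus strand, 7 exons), was measured at 38.2 and 33.0 FPKM at E14.5, 43.5 and 30.4 a day later and 42.6 and 42.0 at E16.5 in TGFβ3-/- palates. Its level did not pass the test between the ages (log2 difference 0.25, standard error 0.16, adjusted p = 0.296). Palates of WT gave 32.3 and 33.8 FPKM at E14.5 and 27.6 and 35.3 at E16.5, so that the genotypes overlapped at E14.5 and both TGFβ3-/- animals were above both WT animals at E16.5. The deleted part is not given in the sources used here, and a value summed over all exons checks nothing about it. At the level of protein, the study reported a western blot at E15.5 in which TGFβ3-/- palates showed no TGFβ3. Assembled loci lying wholly inside Tgfb3 introns were found in 2 of 2 TGFβ3-/- animals at E14.5 and in 2 of 2 at E16.5, against 0 of 2 WT animals at either age, with TGFβ3+/- at 1 of 2 and 2 of 2.

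The labelled tissue showed in its defining genes. Of 32 palatal mesenchyme markers, 28 had a value and 26 were tested, and Prrx1, a homeobox factor of craniofacial mesenchyme, was at 110.3 and 169 FPKM at E14.5 and 87.1 and 70.1 at E16.5. Markers of other cells that a dissected palate can hold were present too, and their lists are described below where they changed.

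Between E14.5 and E16.5, 745 of 12680 tested genes were higher (5.88%) and 116 were lower (0.915%) in TGFβ3-/- palates. The called genes that rose did so by a median of 1.46, with 196 of them at 2 or more and 51 at 3 or more, whereas those that fell had a median of -1.15 and only 6 reached -2. The median over all genes tested was -0.02. List counts below stand beside the shares of 5.88% and 0.915%. In WT the shares called higher and lower were 7.52% and 0.639%, and in TGFβ3+/- 4.68% and 0.336%. At one of the ages, 104 of the 745 and 11 of the 116 had a value in 1 animal alone, which the test assumes to vary like the other groups. All 745 and all 116 had values that did not overlap between the ages, a property that 31.6% (higher) and 34.1% (lower) of the 11646 genes with 4 values shared. Leaving out E16.5 replicate 1, 461 genes were higher and 81 lower, of which 429 and 54 were also called with all animals. Leaving out E16.5 replicate 2, the counts were 685 higher and 215 lower, of which 589 and 82 were called with all animals. With the adjusted p alone and no minimum difference, the counts were 1491 higher and 1418 lower.

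**Figure D1:**
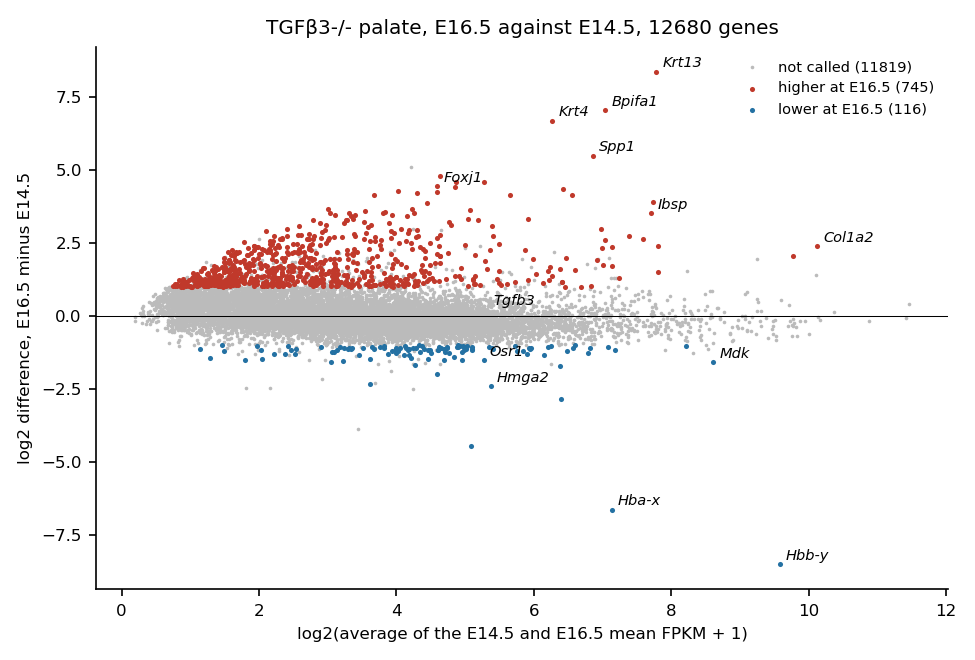
Difference between E16.5 and E14.5 in TGFβ3-/- palates (vertical axis, log2) against the average level of the 2 ages (horizontal axis, log2), 1 point per gene for 12680 genes. Of the 745 genes called higher (red) 196 reach 2 or more, whereas 6 of the 116 called lower (blue) reach -2, with Krt13 at the top and Hbb-y at the bottom.

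Genes of the stratifying oral epithelium were among those with the largest rises. Krt13, a keratin of the suprabasal layers of oral mucosa (chromosome 11, 99978641 to 99982880), was at 0.275 FPKM in the 1 animal with a value at E14.5, 21.2 and 14.8 a day later and 539 and 334 at E16.5. The E14.5 value comes from 1 lane, in which a fragment covered 41.7% of the exonic bases, so the difference of 8.38 has 1 animal near the detection limit on its lower side. Krt4, the keratin that pairs with Krt13 in the same layers, was at 0.355 and 0.536 FPKM at E14.5, 11.1 and 13.6 a day later and 179 and 124 at E16.5, a rise in every animal at each step (log2 difference 6.70, standard error 0.45, adjusted p = 1.69e-05). Ly6d, a surface protein of differentiating keratinocytes, stood at 1.64 and 1.43 FPKM at E14.5, 9.47 and 8.15 a day later and 59.6 and 48.6 at E16.5 (difference 4.44, adjusted p = 6.39e-05). Krt6a, a keratin of oral and stressed epithelium, was at 15.3 and 2.70 FPKM at E14.5, 24.3 and 15.6 a day later and 184 and 139 at E16.5, and the 2 animals of E14.5 were far apart (difference 4.37, adjusted p = 0.000965). Krtdap, a secreted peptide of differentiating keratinocytes, rose by 4.16 (adjusted p = 0.00124). Dmkn, a secreted protein of the upper epidermis, had a value in 1 animal at E14.5 and rose by 4.59 from it. Krt1, the suprabasal keratin of cornifying epithelium, rose by 3.62 (adjusted p = 0.0115).

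Of 33 genes on the list of periderm and cornified epithelium, 29 had a value in some animal and 20 were tested. Of these, 13 were higher (5.88% over all genes tested), 0 were lower and 7 did not pass, with a median of 2.61. The list summed to 133 and 76.5 FPKM at E14.5 and to 1695 and 1066 at E16.5. Arhgap29, a periderm regulator of the cytoskeleton, lay at 21.9 and 23.1 FPKM at E14.5 and 18.3 and 21.5 at E16.5 and Krt17, an early stratification keratin, at 36.3 and 37.3 FPKM at E14.5 and 106 and 73.5 at E16.5; neither passed the test. Sprr3, a precursor of the cornified envelope, and Cdsn, a glue of cornified cells, had no locus in any E14.5 lane and were at 98.3 and 43.6 FPKM at E16.5 and 6.72 and 2.82 FPKM at E16.5. There were 9 called members without E16.5 replicate 1. In WT 14 of 18 tested members were higher and in TGFβ3+/- 12 of 16.

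Their promoters were examined for short words, which the choice of the list did not use. The letters TATAAA, the core of the TATA box, were searched on both strands in RefSeq promoters (GRCm38.p6, 250 bases before to 50 after the start). They stood in 11 of the 22 promoters that could be matched to the list (50%), against 15.7% of all 27025 promoters, 9.22% of those of tested genes and 15.2% of those of genes called higher. Read on the sense strand and 20 to 40 bases before the start, they stood in 9 of 22 (40.9%) against 2.41% of all. The stretches below, each the 60 bases just before the start, are shown for 4 members and 1 bone gene because they carry this word, in capitals, at that place.
Krtdap, chr7:30787845-30787904, plus strand: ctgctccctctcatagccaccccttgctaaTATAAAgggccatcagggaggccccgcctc
Lor, chr3:92083143-92083202, minus strand: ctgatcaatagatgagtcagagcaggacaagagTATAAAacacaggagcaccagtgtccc
Sprr3, chr3:92458721-92458780, minus strand: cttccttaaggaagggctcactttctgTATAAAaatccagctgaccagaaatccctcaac
Krt10, chr11:99389365-99389424, minus strand: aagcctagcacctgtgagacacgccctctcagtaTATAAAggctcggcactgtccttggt
Bglap, chr3:88384467-88384526, minus strand: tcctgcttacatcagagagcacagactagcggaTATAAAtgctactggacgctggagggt
Among these, Krtdap was called (4.16), Lor, the main protein of the cornified envelope, was called at 1.04 and 0.494 FPKM at E14.5 and 6.42 and 4.16 at E16.5 (difference 1.82, adjusted p = 0.0406), and Krt10, the partner of Krt1, was not, at 16.1 and 3.06 FPKM at E14.5 and 15.3 and 10.6 at E16.5 (0.72, adjusted p = 0.558). The same place-bound word stood in 3 of 23 promoters of the airway list (13%), 2 of 20 of the osteoblast list (10%) and 0 of 18 of the macrophage list. Another 3 words were searched on both strands in the same windows. The core word of Runx factors, TGTGGT, stood in 6 of 20 osteoblast promoters (30%), 5 of 18 macrophage promoters (27.8%) and 6 of 29 skeletal muscle promoters (20.7%) against 18.9% of all. The E-box form CACGTG stood in 1 of 29 skeletal muscle promoters (3.45%) against 8.09% of all, and other E-box forms were not searched. The X-box of RFX factors stood in 0 of 23 airway promoters against 0.984% of all. A word this rare cannot separate 23 promoters from all. A match is a description of letters and not of a bound factor.

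Genes of respiratory and ciliated epithelium, which lines the nasal side, rose by a like median. Bpifa1, a secreted protein of nasal and airway surface cells (chromosome 2, 153968616 to 153974955), was at 1.67 and 0.419 FPKM at E14.5, 121 and 302 a day later and 256 and 266 at E16.5 (log2 difference 7.07, standard error 0.82, adjusted p = 5e-04). Cyp2f2, a monooxygenase of secretory airway cells, was at 2.60 and 1.60 FPKM at E14.5, 37.9 and 55.5 a day later and 73.0 and 74.0 at E16.5 (log2 difference 4.61, standard error 0.49, adjusted p = 0.000207). Foxj1, the master regulator of motile cilia, was at 1.41 and 0.833 FPKM at E14.5, 43.0 and 47.6 a day later and 49.9 and 40.4 at E16.5, and the animals of the later ages overlapped (difference 4.45, adjusted p = 0.00015). The 49.9 FPKM came from 1 lane of E16.5 replicate 1. Rsph1, a radial spoke protein of the ciliary axoneme, was at 0.623 and 0.511 FPKM at E14.5, 13.2 and 15.8 a day later and 31.2 and 28.5 at E16.5 with both E16.5 animals above those of E15.5 (difference 4.3, adjusted p = 6.39e-05). Reg3g, an antimicrobial lectin of mucosal surfaces, rose by 4.24 (adjusted p = 0.0012). Tekt1 and Dnaic2, an axonemal filament protein and a dynein chain, rose by 2.74 (adjusted p = 0.000745) and 2.47 (adjusted p = 0.000839). Ccno, which drives centriole amplification, had a value in 1 animal at E14.5 and rose by 2.96 from it. Lrrc23, another radial spoke protein, was at 0.900 and 0.555 FPKM at E14.5 and 47.2 in the 1 animal with a value at E16.5, from a single lane, too few for a difference.

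On the airway, nasal and ciliated list of 31 genes, 25 had a value, 13 were tested, 11 were higher (5.88% over all genes tested) and 0 lower, with a median of 2.74. Tuba1a, an α-tubulin also abundant in neurons, at 627 and 547 FPKM at E14.5 and 572 and 774 at E16.5 and Cnga2, an olfactory channel subunit, at 0.318 FPKM in the 1 animal with a value at E14.5 and 2.57 and 1.96 at E16.5 did not pass. The list summed to 655 and 566 FPKM at E14.5 and to 1294 and 1449 at E16.5, with Tuba1a making up most of it at E14.5. Another 7 members had no locus in any E14.5 lane and a value in all E16.5 lanes and could not be tested. They include Dynlrb2, a dynein light chain, at 83.3 and 68.5 FPKM at E16.5, Fam183b at 16.7 and 10.6 FPKM at E16.5, Ccdc113, a centriolar protein, at 14.4 and 12.5 FPKM at E16.5, and Tekt4, an axonemal tektin, at 9.87 and 8.26 FPKM at E16.5. The count of called members was 10 without E16.5 replicate 1, and WT had 13 of 14 and TGFβ3+/- 11 of 14.

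Genes seen at one age alone were 370 at E16.5, defined by no locus in the 4 E14.5 lanes and a value in the 4 E16.5 lanes, and 187 of them were at 1 FPKM or more in both animals, 36 at 5 or more. The reverse pattern had 30 genes, 8 of them at 1 FPKM or more in both E14.5 animals. A missing locus is a failure of assembly as well as a low level, so no fold is given. Of the 187, 113 showed the same pattern in WT and 126 in TGFβ3+/-. Ranked by the lower of their 2 E16.5 values, a rule chosen after the values were seen, the first were Dynlrb2, Sprr3, then Cnfn, a cornified envelope protein, at 63.7 and 28.3 FPKM at E16.5, Mmp13, the collagenase of bone and hypertrophic cartilage, at 28.0 and 35.4 FPKM at E16.5, and Ccdc153, a ciliary protein, at 27.7 and 22.7 FPKM at E16.5. Hbb-bh1, an embryonic β-like globin, led the reverse group with 35.6 and 17.0 FPKM at E14.5.

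Basal layer genes had a smaller median than the genes of the layers above. Of 22 basal epithelium genes, all tested, 5 were higher (5.88% over all genes tested), 0 were lower and the median was 0.83. Krt15 and Krt5, keratins of basal cells, were at 36.6 and 34.9 FPKM at E14.5 and 258 and 193 at E16.5 (difference 2.61, adjusted p = 0.000742) and at 65.1 and 50.6 FPKM at E14.5 and 235 and 162 at E16.5 (difference 1.75, adjusted p = 0.00543). Overlapping loci of Krt5, at 178% and 119% of its exonic bases, were added at E16.5, which can raise those values. Its E14.5 replicate 2 had a locus in 1 lane. Perp, a desmosomal protein, Col17a1, a hemidesmosomal collagen, and Lamb3, a laminin chain of the basement membrane, rose by 1.54 (adjusted p = 0.0104), 1.36 (adjusted p = 0.0163) and 1.3 (adjusted p = 0.00467). Trp63, the regulator of stratified epithelium, lay at 9.45 and 7.65 FPKM at E14.5 and 9.17 and 8.49 at E16.5 and Epcam, a general epithelial marker, at 47.6 and 22.1 FPKM at E14.5 and 36.1 and 39.3 at E16.5, and neither passed the test. Epithelial levels moved with the animal at E14.5, where replicate 1 was above replicate 2 for Krt8 at 38.8 and 15.1 FPKM at E14.5 and 74.0 and 66.8 at E16.5 and for Cdh1 at 17.8 and 9.03 FPKM at E14.5 and 28.6 and 22.1 at E16.5; the part of epithelial share in these results was not tested. There were 2 calls without E16.5 replicate 1 and 8 without E14.5 replicate 1.

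Of the gland and mucous cell genes, 6 of 11 tested rose (5.88% over all genes tested), with a median of 1.26 and 5 more seen at E16.5 alone. Ltf, the iron-binding lactoferrin also made by neutrophils, was at 0.434 and 0.148 FPKM at E14.5 and 7.01 and 6.27 at E16.5 (difference 2.57, adjusted p = 0.000166), Agr2, a folding factor for mucins, at 0.851 FPKM in the 1 animal with a value at E14.5 and 10.5 and 10.3 at E16.5 (difference 2.63, adjusted p = 0.0132) and Wfdc2, a protease inhibitor of airway and gland secretions, at 24.9 and 15.0 FPKM at E14.5 and 50.1 and 45.0 at E16.5 (difference 1.25, adjusted p = 0.0224). The Ltf value of E14.5 replicate 2 came from 1 lane with 21.4% of the exonic bases covered. Aqp5, the water channel of salivary acini, was among those without an E14.5 locus, at 2.41 and 1.88 FPKM at E16.5.

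**Figure D2:**
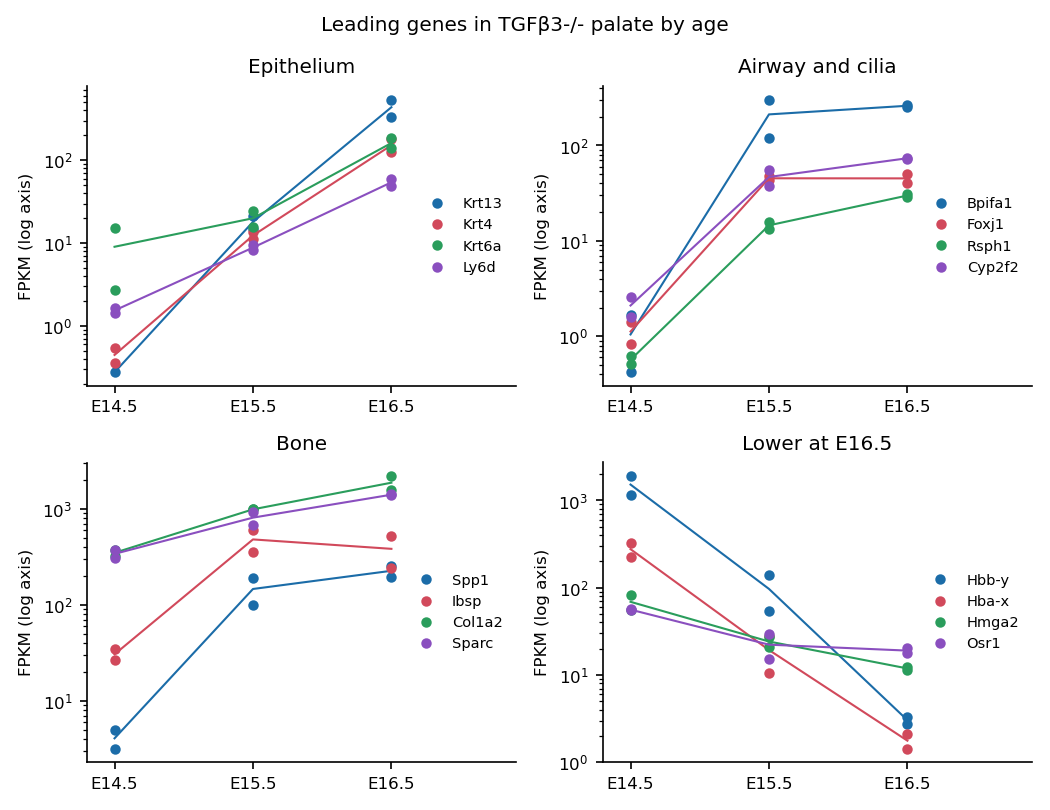
FPKM (log axis) of leading genes in each TGFβ3-/- animal by age, with lines through the means of the animals with a value. Airway genes and Spp1 had risen by E15.5, the oral keratins rose at both steps, and the primitive globins Hbb-y and Hba-x fell at both.

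Most of the bone matrix genes tested rose, several of them to high levels. Spp1, osteopontin, a mineral-binding matrix protein (chromosome 5, 104864137 to 104870069), was at 4.95 and 3.15 FPKM at E14.5, 101 and 192 a day later and 197 and 256 at E16.5, and every E15.5 and E16.5 animal was far above both E14.5 animals (log2 difference 5.51, standard error 0.35, adjusted p = 1.15e-05). Ibsp, bone sialoprotein, was at 26.3 and 34.6 FPKM at E14.5, 356 and 607 a day later and 243 and 526 at E16.5 and the 2 ages after E14.5 overlapped (log2 difference 3.52, standard error 0.87, adjusted p = 0.0143). The loci of E16.5 replicate 1 covered 29.2% of its exonic bases, and since values are weighted by that share, the 243 FPKM is a low estimate. Col1a2, a chain of type I collagen, was at 322 and 377 FPKM at E14.5, 994 and 991 a day later and 2204 and 1561 at E16.5 (log2 difference 2.41, standard error 0.31, adjusted p = 0.000667), and Sparc, a collagen-binding glycoprotein of mineralizing matrix, at 307 and 373 FPKM at E14.5, 686 and 940.3 a day later and 1398 and 1425 at E16.5 (difference 2.06, adjusted p = 0.000509). Dmp1, a matrix phosphoprotein of osteocytes, was at 0.183 FPKM in the 1 animal with a value at E14.5, 7.01 and 21.9 a day later and 14.5 and 13.4 at E16.5, where the E14.5 value comes from 1 lane with 54.5% of the exonic bases covered (difference 3.65). Ifitm5, an osteoblast membrane protein, Omd, the keratan sulfate proteoglycan osteomodulin, and Smpd3, a sphingomyelinase needed for mineralization, rose by 3.13 (adjusted p = 0.00358), 2.71 (adjusted p = 0.000165) and 2.67 (adjusted p = 0.00272). Bglap and Bglap2, the osteocalcin genes, had no locus at E14.5 and were at 18.9 and 23.3 FPKM at E16.5 and 10.3 and 12.3 FPKM at E16.5; they are neighbouring near-identical copies, so the split between them is uncertain.

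Of 29 osteoblast and bone matrix genes, 26 had a value and 20 were tested. Of these, 14 were higher (5.88% over all genes tested) and 0 lower, with a median of 1.88 and 4 others seen at E16.5 alone. The list summed to 1201 and 1407 FPKM at E14.5 and to 5493 and 4937 at E16.5. Cthrc1, a secreted protein of collagen-producing cells, at 67.5 and 61.4 FPKM at E14.5 and 69.7 and 95.1 at E16.5 was among the 6 that did not pass. The count was 12 without E16.5 replicate 1. It was 10 of 21 in WT and 12 of 20 in TGFβ3+/-.

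Of the osteoclast genes, 5 of 10 tested rose (5.88% over all genes tested), with a median of 1.00. Acp5, the tartrate-resistant phosphatase of osteoclasts, was at 2.09 and 1.98 FPKM at E14.5, 13.6 and 14.6 a day later and 34.6 and 28.6 at E16.5 (log2 difference 3.42, standard error 0.38, adjusted p = 0.000279). Ctsk, the protease that digests bone collagen, was at 16.5 and 21.7 FPKM at E14.5, 43.5 and 64.0 a day later and 86.3 and 105 at E16.5 (difference 2.27, adjusted p = 0.000541), and Mmp9, a gelatinase of osteoclasts, at 5.26 and 6.96 FPKM at E14.5, 20.5 and 22.7 a day later and 36.8 and 30.6 at E16.5 (difference 2.29, adjusted p = 0.00074). All 3 were higher in each E16.5 animal than in any younger one. Tnfsf11, the cytokine that induces osteoclasts, at 0.677 and 0.911 FPKM at E14.5 and 1.5 and 1.38 at E16.5 and Nfatc1, their master regulator, at 8.40 and 6.33 FPKM at E14.5 and 10.4 and 8.52 at E16.5 did not pass the test.

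Cartilage genes were less uniform than bone genes. The median of the 18 tested was 1.66, and 16 had both E16.5 animals above both E14.5 animals, against 31.6% of all genes with 4 values. Still, 3 of the 18 were called higher (5.88% over all genes tested) and 0 lower. The 3 were Comp, a pentameric matrix protein of cartilage and tendon, at 2.83 and 0.273 FPKM at E14.5 and 21.7 and 27.3 at E16.5 (3.52, adjusted p = 0.00719), Epyc, a small proteoglycan of growth plate, at 2.77 and 4.03 FPKM at E14.5 and 25.4 and 42.7 at E16.5 (2.96, adjusted p = 0.0217), and Ucma, a secreted protein of chondrocytes, at 1.00 and 1.04 FPKM at E14.5 and 8.22 and 8.09 at E16.5 (2.18, adjusted p = 0.00508). The locus of Comp covered 40.8% of its exonic bases in E14.5 replicate 2, so the 0.273 FPKM is a low estimate. Col2a1, the main collagen of cartilage, was at 334 and 176 FPKM at E14.5 and 1078 and 835 at E16.5 and missed the threshold (log2 difference 1.96, standard error 0.78, adjusted p = 0.0906). Sox9, the regulator of chondrocytes, was at 38.0 and 18.2 FPKM at E14.5 and 8.17 and 7.24 at E16.5, in the other direction and with the E14.5 animals far apart (difference -1.65, adjusted p = 0.154).

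Part of the wider matrix rose beside the bone genes. Among 27 tested collagens 10 were higher and 0 lower (median 0.84), and among 27 small leucine-rich proteoglycans and elastic fibre genes 12 were higher and 0 lower (median 0.88). Over all genes tested, 5.88% were higher. Col22a1, a collagen of tissue junctions, was at 1.22 and 1.21 FPKM at E14.5 and 15.0 and 10.6 at E16.5 (2.62, adjusted p = 0.00398), Col6a3, a chain of the microfibrillar type VI collagen, at 36.1 and 30.6 FPKM at E14.5 and 152 and 77.2 at E16.5 (1.68, adjusted p = 0.004), and Col11a2, a fibril-regulating chain, at 31.4 and 20.8 FPKM at E14.5 and 303 and 143 at E16.5 (2.98, adjusted p = 0.00979). Col3a1, the abundant collagen of soft connective tissue, was at 375 and 419.8 FPKM at E14.5 and 713 and 634 at E16.5 and passed the adjusted p but not the minimum difference (0.76, adjusted p = 0.012). Fmod, which regulates collagen fibril width, was at 5.31 and 5.30 FPKM at E14.5, 14.2 and 21.9 a day later and 46.8 and 38.4 at E16.5 (log2 difference 2.78, standard error 0.29, adjusted p = 0.000205). Bgn, the proteoglycan biglycan, was at 122 and 106 FPKM at E14.5, 201 and 221 a day later and 359 and 303 at E16.5 with every animal above those of the age before (difference 1.53, adjusted p = 0.000145). Dcn, decorin, was at 24.6 and 91.5 FPKM at E14.5, 102 and 99.6 a day later and 176 and 188 at E16.5, with E14.5 animals several fold apart (difference 1.91, adjusted p = 0.0143). Mfap2, a microfibril protein, at 329 and 261 FPKM at E14.5 and 269 and 161 at E16.5 and Fbln1, a fibulin of connective tissue, at 55.2 and 66.2 FPKM at E14.5 and 54.1 and 48.3 at E16.5 did not pass. Without E16.5 replicate 1 the counts were 6 collagens and 8 proteoglycans, and without E14.5 replicate 1 the proteoglycans were 6. The collagen count was 2 of 27 in WT and 8 of 27 in TGFβ3+/-, and no collagen passed the test of the difference between genotypes.

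**Figure D3:**
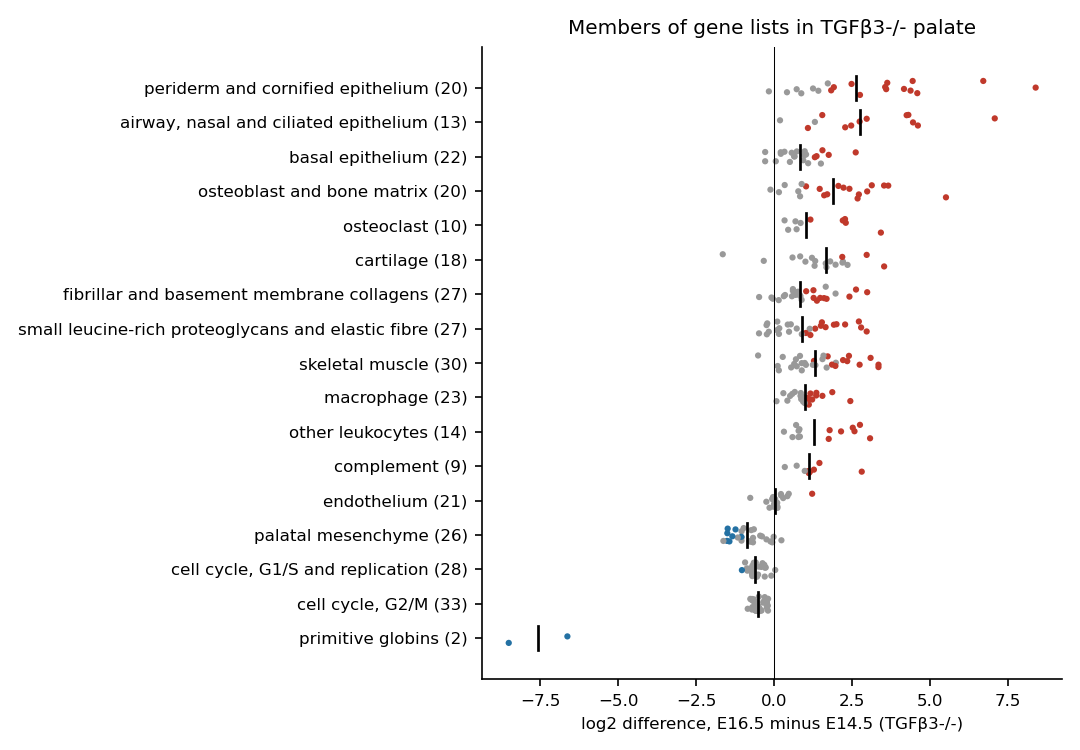
Log2 difference (horizontal axis) of every tested member of 17 gene lists in TGFβ3-/- palates, with the number tested in brackets, members called higher in red, lower in blue, others in grey, and the list median as a black bar. Epithelial and bone lists lie to the right of 0, palatal mesenchyme and cell cycle lists to the left, and endothelium around 0.

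Several skeletal muscle genes, which encode the contractile apparatus of the soft palate and adjoining muscles, were highest at E16.5. Myh8, the perinatal myosin heavy chain, was at 2.84 and 7.21 FPKM at E14.5, 10.9 and 6.14 a day later and 77.6 and 40.2 at E16.5 (log2 difference 3.34, standard error 0.72, adjusted p = 0.0078). Tnnt3 and Tnni2, subunits of fast troponin, were at 5.89 and 15.6 FPKM at E14.5, 25.6 and 13.7 a day later and 106 and 109 at E16.5 and at 4.45 and 12.9 FPKM at E14.5, 15.9 and 7.91 a day later and 71.3 and 74.8 at E16.5. Their differences were 3.34 (adjusted p = 0.00457) and 3.09 (adjusted p = 0.00613), and neither E15.5 animal reached an E16.5 value. Acta1, skeletal α-actin, was at 26.8 and 65.8 FPKM at E14.5, 86.0 and 43.9 a day later and 306 and 267 at E16.5 (log2 difference 2.74, standard error 0.73, adjusted p = 0.0204), and Mylpf, the fast regulatory light chain, at 36.5 and 128 FPKM at E14.5, 98.6 and 56.6 a day later and 355 and 375 at E16.5 (2.39, adjusted p = 0.0456). Neb, the giant ruler protein of thin filaments, and Casq2, a calcium store protein, rose by 2.21 (adjusted p = 0.012) and 1.96 (adjusted p = 0.0428). Loci covered 46.7% and 66.6% of the exonic bases of Neb at E14.5 and 98.0% and 90.3% at E16.5. Since values are weighted by that share, its E14.5 values are low estimates and its rise a high one. Myod1, the muscle determination factor, was at 6.15 and 11.9 FPKM at E14.5 and 10.1 and 8.69 at E16.5, Myog, which drives differentiation, at 16.0 and 31.6 FPKM at E14.5 and 34.6 and 31.9 at E16.5, and Pax7, the marker of muscle stem cells, at 4.05 and 2.19 FPKM at E14.5 and 1.74 and 1.87 at E16.5, and these 3 did not pass the test.

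Of 36 skeletal muscle genes, 33 had a value and 30 were tested. Of these, 11 were higher (5.88% over all genes tested) and 0 lower with a median of 1.3. The list summed to 279.5 and 746 FPKM at E14.5 and to 1879.9 and 1770.3 at E16.5, so the E14.5 animals differed from each other by more than 2-fold. The call therefore leaned on single animals, with 1 member left without E14.5 replicate 1, 2 without E16.5 replicate 1, 6 without E16.5 replicate 2 and 7 under the replicate block. In WT 0 of 31 members were higher with a median of 0.01, and in TGFβ3+/- 2 of 30 with a median of 0.66. The WT animals gave 79.4 and 36.6 FPKM at E14.5 and 230.4 and 63.7 at E16.5 for Acta1 and 161 and 61.9 FPKM at E14.5 and 214 and 68.9 at E16.5 for Mylpf, and at each age the 2 animals lay far apart. The difference in change between TGFβ3-/- and WT did not pass for any muscle gene, with Mylpf at 2.11 (standard error 1.10, adjusted p = 0.805). How much muscle each dissection held was not tested.

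**Figure D4:**
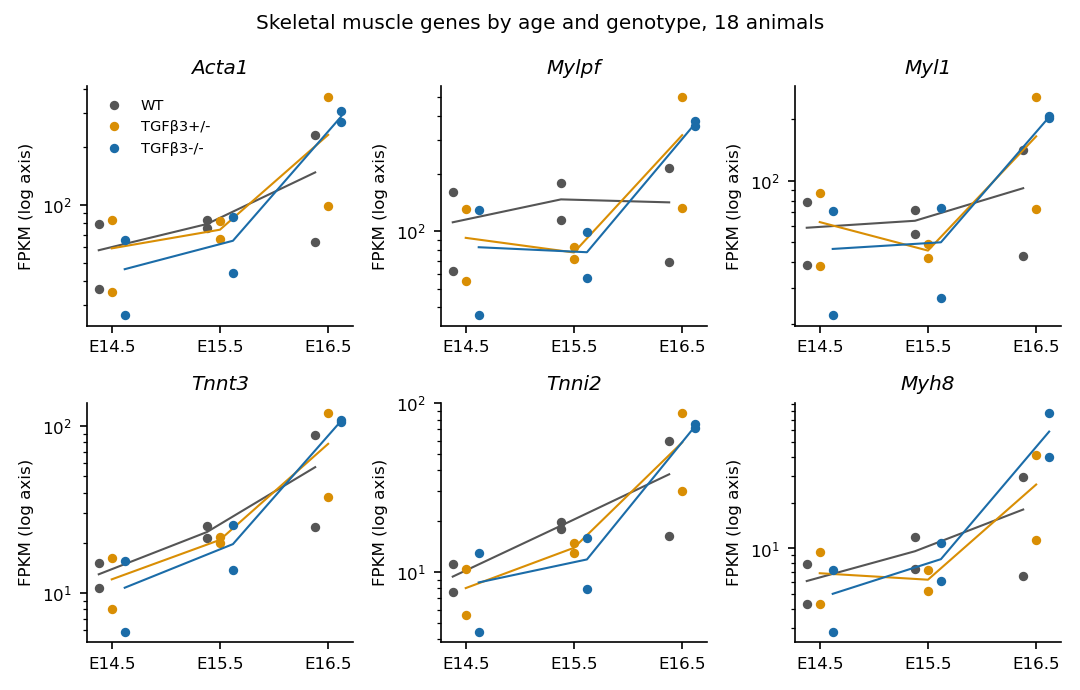
FPKM (log axis) of 6 skeletal muscle genes in all 18 animals by age and genotype, with lines through group means. At E16.5 both TGFβ3-/- animals are high, whereas the 2 animals of WT and of TGFβ3+/- lie apart, and at E14.5 animals of every genotype spread.

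The steepest falls were those of primitive red cell globins, which yolk sac erythrocytes carry. Hbb-y, an embryonic β-like globin (chromosome 7, 111000259 to 111001754), was at 1900.0 and 1141 FPKM at E14.5, 140.1 and 53.7 a day later and 2.73 and 3.34 at E16.5 (log2 difference -8.52, standard error 0.50, adjusted p = 1.15e-05). Hba-x, the embryonic α-like globin, was at 327 and 226 FPKM at E14.5, 28.1 and 10.5 a day later and 2.11 and 1.43 at E16.5 (log2 difference -6.64, standard error 0.42, adjusted p = 1.15e-05). Each age was separate from the next for both genes. Hbb-b1, an adult β-globin, was at 535 and 635 FPKM at E14.5 and 2120.0 and 1136 at E16.5 and did not pass (1.41, adjusted p = 0.118), and of 8 tested erythroid genes other than globins 0 were called. In WT Hbb-y was at 1144 and 2362 FPKM at E14.5 and 4.93 and 6.39 at E16.5, a fall of the same order.

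Genes of the palatal mesenchyme list, most of them transcription factors, moved down or did not pass the test. Of 26 tested, 0 were higher and 7 lower (5.88% and 0.915% over all genes tested) with a median of -0.89. Both E16.5 animals were below both E14.5 animals for 22 of them, against 34.1% of all genes with 4 values. Osr1, a zinc finger factor of shelf mesenchyme, was at 55.4 and 56.8 FPKM at E14.5, 29.2 and 15.3 a day later and 20.2 and 17.8 at E16.5 (log2 difference -1.51, standard error 0.43, adjusted p = 0.0265), and Barx1, a homeobox factor of the oral-side mesenchyme, at 84.1 and 118 FPKM at E14.5, 38.1 and 60.3 a day later and 41.5 and 35.9 at E16.5 (-1.35, adjusted p = 0.00399). Hand2, Prrx2, Alx4, Tbx2 and Shox2, factors of craniofacial and limb mesenchyme, were lower, with differences of -1.51 (adjusted p = 0.0261), -1.5 (adjusted p = 0.00869), -1.44 (adjusted p = 0.00449), -1.24 (adjusted p = 0.0367) and -1.05 (adjusted p = 0.0286). Levels did not pass the test for Pax9, needed for shelf growth, at 25.5 and 16.3 FPKM at E14.5 and 22.6 and 16.8 at E16.5 or for Msx1, of the anterior palate, at 51.2 and 50.7 FPKM at E14.5 and 33.8 and 30.3 at E16.5. The count was 5 without E16.5 replicate 1 and 4 without E14.5 replicate 2 or E16.5 replicate 2. It was 9 of 26 in WT and 1 of 26 in TGFβ3+/-. Twist1 and Twist2, mesenchymal helix-loop-helix factors, were at 90.3 and 74.2 FPKM at E14.5 and 36.5 and 39.4 at E16.5 (-1.09, adjusted p = 0.00295) and 19.2 and 24.2 FPKM at E14.5 and 7.90 and 8.71 at E16.5 (-1.28, adjusted p = 0.0054).

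A pair of oncofetal genes from a list around Lin28 and the let-7 microRNAs fell steadily. Hmga2, a chromatin protein of embryonic mesenchyme, was at 55.0 and 82.9 FPKM at E14.5, 27.6 and 20.8 a day later and 12.3 and 11.4 at E16.5 (log2 difference -2.41, standard error 0.28, adjusted p = 0.000334). Igf2bp1, a protein that binds and stabilizes mRNA in the embryo, was at 14.6 and 14.6 FPKM at E14.5, 7.78 and 7.10 a day later and 5.41 and 5.10 at E16.5 (log2 difference -1.32, standard error 0.13, adjusted p = 0.000165). Both fell at both steps without overlap, and in WT they went from 71.5 and 75.5 FPKM at E14.5 and 9.26 and 11.4 at E16.5 for Hmga2 and 13.4 and 10.3 FPKM at E14.5 and 3.83 and 4.09 at E16.5 for Igf2bp1. Of 14 tested list members 0 were higher and 2 lower (0.915% lower over all genes tested), with a median of -0.10.

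Both carry repeated matches to the let-7 seed, and the sequences are shown for that reason. Mature let-7 from RefSeq (GRCm38.p6) has its seed, bases 2 to 8, in capitals, and the seed GAGGUAG is shared by 9 of the 10 let-7 arms in the table.
let-7a: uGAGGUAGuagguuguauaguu
let-7d: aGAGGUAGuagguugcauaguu
let-7i: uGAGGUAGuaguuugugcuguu
The complement CTACCTC was searched in the 3′ untranslated region (UTR) of NCBIM37 gene models. Hmga2 had 4 matches in 3017 bases and Igf2bp1 4 in 6340, of which 2 each are shown as 29 bases with the match in capitals.
Hmga2, chr10:119801270-119801298, minus strand: acattcaatttCTACCTCagcatcagttg
Hmga2, chr10:119800033-119800061, minus strand: actcctcaataCTACCTCtgaatgctaca
Igf2bp1, chr11:95823082-95823110, minus strand: tgcgaagtaaaCTACCTCaaggtgtgaag
Igf2bp1, chr11:95820661-95820689, minus strand: agtgctattaaCTACCTCagccccagagg
Over all 11992 tested genes with a UTR, 10.4% had a match. Among the 21 with 3 or more, 3 were called lower (14.3%; Hmga2, Igf2bp1 and Hic2, a transcriptional repressor, named after its values were seen) and 0 higher, against 0.903% lower of the 10745 with none. The fall of Hmga2 and Igf2bp1 led to this search, and without them 1 of 19 was lower. Genes with 3 or more matches also had longer UTRs, with a median of 4288 bases against 1070, and their median difference was -0.15 against -0.02. MicroRNA levels were not measured here, and a match is not a site shown to be used.

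Proliferation lists had medians below 0, with 1 member called. Of 28 G1/S and replication genes 0 were higher and 1 lower, the replication factor Gins1 at 18.2 and 17.7 FPKM at E14.5 and 7.04 and 9.61 at E16.5 (-1.04, adjusted p = 0.00214), with a median of -0.61, while 16 passed the adjusted p in the lower direction and 25 had both E16.5 animals below both E14.5 animals. Of 33 G2/M genes 0 were called in either direction, but 20 passed the adjusted p in the lower direction and 30 did not overlap, with a median of -0.51. Over all 12680 genes tested, 0.915% were called lower and 1418 passed the adjusted p in the lower direction. Of all genes with 4 values, 34.1% had both E16.5 animals below both E14.5 animals. Cdkn1a, the inhibitor p21, was at 13.2 and 11.5 FPKM at E14.5, 46.2 and 49.1 a day later and 54.1 and 58.4 at E16.5 (log2 difference 2.10, standard error 0.25, adjusted p = 0.000424) with most of the rise by E15.5.

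Among other abundant genes that fell, Mdk, the growth factor midkine, was at 565 and 607 FPKM at E14.5, 275 and 302 a day later and 188 and 201 at E16.5 (log2 difference -1.59, standard error 0.16, adjusted p = 0.000165), and each age was below the one before. Mmp11, a stromal metalloproteinase, was at 37.2 and 53.4 FPKM at E14.5, 22.5 and 19.3 a day later and 14.8 and 14.9 at E16.5 (-1.52, adjusted p = 0.000424), and Asb4, an ubiquitin ligase adaptor, at 24.6 and 32.2 FPKM at E14.5 and 6.54 and 9.97 at E16.5 (-1.68, adjusted p = 0.00612). Cxcl14, a chemokine, was at 45.0 and 29.8 FPKM at E14.5 and 7.67 and 9.44 at E16.5 (-1.99, adjusted p = 0.0302). Several of the 15 steepest falls rest on doubtful loci. Eif3i, a translation initiation subunit, was at 144 and 151 FPKM at E14.5 and 18.9 and 20.4 at E16.5 but its locus in part of the lanes runs over neighbouring genes, and the other genotypes ranged from 22.5 to 131 FPKM at E16.5. B3galt6, a glycosyltransferase, had a value in 1 animal of each age, and Gm15564 lost its call when only the highest locus of a gene was used.

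A part of the immune cell genes rose. Of 23 macrophage genes tested 11 were higher (5.88% over all genes tested) and 0 lower, with a median of 0.98. All 23 had E16.5 animals above the E14.5 animals, against 31.6% of all genes with 4 values. Lyz2, the lysozyme of myeloid cells, was at 7.59 and 10.6 FPKM at E14.5, 34.6 and 32.8 a day later and 50.8 and 55.5 at E16.5 (log2 difference 2.44, standard error 0.24, adjusted p = 0.000165), F13a1, a coagulation factor of tissue macrophages, at 3.05 and 3.85 FPKM at E14.5 and 14.2 and 16.1 at E16.5 (1.86, adjusted p = 0.000166), and Tyrobp, a signalling adaptor of myeloid cells, at 8.64 and 11.4 FPKM at E14.5 and 31.0 and 30.7 at E16.5 (1.54, adjusted p = 0.000244). Csf1r, the receptor that macrophages and osteoclasts share, was at 4.42 and 4.94 FPKM at E14.5 and 12.2 and 11.2 at E16.5 (1.16, adjusted p = 0.000353). Of 14 other leukocyte genes 7 were higher with a median of 1.28. Cma1 and Cpa3, proteases of mast cells, rose by 3.07 (adjusted p = 0.00103) and 2.14 (adjusted p = 0.00488). Tpsb2, another such protease, had a value in 1 animal at E14.5 and rose by 2.75 from it. Hdc, the enzyme that makes histamine, was at 0.670 and 1.17 FPKM at E14.5, 4.90 and 8.63 a day later and 48.4 and 24.3 at E16.5 (4.21, adjusted p = 0.000509). S100a8 and S100a9, a neutrophil protein pair, rose by 1.77 (adjusted p = 0.0439) and 2.52 (adjusted p = 0.0043). Without E16.5 replicate 1 the counts were 9 and 7. Complement genes had 6 of 9 higher.

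Blood vessel genes stayed near 0 as a list, with 1 of 21 endothelial genes higher (5.88% over all genes tested), 0 lower and a median of 0.03. The 1 was Lyve1, a lymphatic receptor that macrophages also carry, at 1.56 and 1.62 FPKM at E14.5 and 4.67 and 5.38 at E16.5 (1.21, adjusted p = 0.00438), while Pecam1, the general endothelial adhesion molecule, was at 15.7 and 18.6 FPKM at E14.5 and 20.3 and 19.6 at E16.5 (0.21, adjusted p = 0.245). Of 11 pericyte and smooth muscle genes 3 were higher, among them Rgs5, a pericyte regulator of G protein signalling, at 6.48 and 8.23 FPKM at E14.5 and 24.4 and 27.4 at E16.5 (1.69, adjusted p = 0.0142).

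Over the 3 lists of the TGFβ pathway together, the share called higher was near the 5.88% over all genes tested, so the counts single out nothing about the pathway. Of 12 ligand and binding protein genes 2 were higher, Tgfb1, a sister ligand, at 9.81 and 9.02 FPKM at E14.5, 16.8 and 21.0 a day later and 24.2 and 18.3 at E16.5 (log2 difference 1.08, standard error 0.19, adjusted p = 0.00337) and Ltbp2, a microfibril protein of the latent TGFβ binding family, at 3.19 and 0.853 FPKM at E14.5 and 11.4 and 6.71 at E16.5 (1.81, adjusted p = 0.00878). Tgfb2, the third ligand, was at 23.9 and 22.5 FPKM at E14.5 and 19.1 and 20.4 at E16.5 (-0.22, adjusted p = 0.318). Of 16 receptors and Smads 0 were called, with Tgfbr1 at 32.9 and 29.7 FPKM at E14.5 and 19.6 and 26.6 at E16.5 (-0.44, adjusted p = 0.139) and Tgfbr2 at 10.3 and 12 FPKM at E14.5 and 16.6 and 16.8 at E16.5 (0.55, adjusted p = 0.00504). Of 23 target genes 2 were higher and 1 lower. Of 264 tested genes from the list of cleft palate genes that the study assembled, 9 were higher and 9 lower. Over all genes tested the shares were 5.88% higher and 0.915% lower, so the list lay below the first and above the second. No test of the list was run.

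With all animals, more genes were called before E15.5 than after it. E15.5 against E14.5 gave 208 higher (1.64%) and 23 lower genes (0.182%) of 12649 tested, and E16.5 against E15.5 gave 19 (0.147%) and 2 (0.0154%) of 12959; both share the E15.5 animals. These counts lean on single animals, with 37 calls in the first step without E15.5 replicate 2 and 78 in the second without E16.5 replicate 2, against 231 and 21. Of the 735 called risers with a value at all 3 ages, 728 had an E15.5 mean above that of E14.5 and 485 rose more before E15.5 than after. Of the 115 called fallers, 113 were lower by E15.5 and 86 fell more in the first step. These genes were chosen by the same E14.5 and E16.5 values, so an E15.5 mean beyond that of E14.5 was favoured in advance. The share over all genes tested was not counted. List medians in each step are given as a description, since the difference between steps was not tested and the members tested were not the same. Osteoblast members had a median of 1.41 in the first step (11 of 20 called higher) and 0.24 in the second (1 of 24), and airway members 2.24 (8 of 13) and 0.92 (0 of 19). Cornified members had 0.69 (2 of 20) and then 2.29 (3 of 22), and skeletal muscle members 0.10 (0 of 30) and then 1.05 (0 of 31). Krt4 rose by 3.20 (adjusted p = 0.00588) and then by 3.5 (adjusted p = 0.0167), whereas Foxj1 rose by 4.46 (adjusted p = 0.00139) and then moved by -0.01 (adjusted p = 0.995). The Foxj1 value of E16.5 replicate 1 came from 1 lane.

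The same window in the other genotypes gave 954 higher (7.52%) and 81 lower genes (0.639%) of 12680 in WT and 599 (4.68%) and 43 (0.336%) of 12799 in TGFβ3+/-. Of the 745 risers of TGFβ3-/- palates, 722 were tested in WT, where 713 were also above 0 and 523 were called, and 461 of 730 were called in TGFβ3+/-. Of the 116 fallers, 100 of the 109 tested in WT were below 0 and 31 were called, and 23 of 111 were called in TGFβ3+/-. The difference in change between TGFβ3-/- and WT passed limma at an adjusted p under 0.05 for 0 of 12369 genes (0%), with 737 at an unadjusted p under 0.05, and the difference from TGFβ3+/- for 0 of 12476 (0%), with 369. The smallest adjusted p was 0.0629 and 0.72, and the median standard error of the difference from WT was 0.27. The sex-linked list had 1 tested member in WT, at 2.80 over this window, and 1 in TGFβ3+/-, at -3.55. In TGFβ3-/- it had 4, with a median of -0.03. The part of sex in the comparison of genotypes was not tested. Spp1 was at 8.29 and 8.16 FPKM at E14.5 and 389 and 378 at E16.5 in WT and 4.77 and 5.87 FPKM at E14.5 and 688 and 309 at E16.5 in TGFβ3+/-, Krt4 at 1.78 and 1.68 FPKM at E14.5 and 59.6 and 57.3 at E16.5 and 0.483 and 0.625 FPKM at E14.5 and 159 and 109 at E16.5, and Mdk at 502 and 487 FPKM at E14.5 and 175 and 210.0 at E16.5 and 481 and 489 FPKM at E14.5 and 185 and 228 at E16.5. Their values in TGFβ3-/- palates moved the same way as in both other genotypes.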

How the data were processed

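The authors removed palates at each age, stored them in RNAlater, isolated poly(A) RNA and sequenced paired ends in lanes 1 and 2 (E14.5), 3 and 5 (E15.5) or 6 and 7 (E16.5). The submitters' processing notes name FastQC 0.10.1, TopHat 1.4.1, Cufflinks 1.3.0 and the mm9 genome (NCBIM37). The deposited FPKM values were made by the authors for loci assembled in each lane alone, scaled by transcript length and mapped fragments, with 95% intervals but without gene name, strand or count, so depth per sample is unknown.

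Loci were joined by position to 26233 annotated genes (GENCODE of NCBIM37), of which 17273 had a value. Each locus's FPKM was weighted by the share of a gene's exonic bases that it covered and these were summed per gene, which was missing with no locus or with a locus that also covered at least 50% of another gene. A partly covered gene therefore has a low estimate, and overlapping loci of one gene add to each other. Genes on opposite strands of one stretch cannot be told apart. Lanes were averaged per animal, 14048 genes with at least 1 FPKM in at least 2 of 18 animals were kept, and log2(FPKM + 1) was fitted with limma 3.58.1 (R 4.3.3) in 1 model of 9 groups with a mean-variance trend and no covariate. A gene missing from both animals of a group was not tested, and where 1 animal had none the fit used the other alone. Python 3.11.15 with pandas 2.3.3 did the joining. The joining and the test were tested on simulated data. The libraries, the 52 gene lists and the rules were chosen with earlier results of these data known.

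Named genes are Tgfb3, the 15 largest called differences in each direction without overlap, up to 8 called members and the 3 highest in FPKM of each list, and any member of a list of 25 genes or fewer. Named after their values were seen were Arhgap29, Cnga2, Cthrc1, Fbln1, Krt10, Krt17, Lor, Myod1, Myog, Pax7, Pax9 and the genes listed at one age alone. For 1 E15.5 TGFβ3-/- library the study's library list and the title differ in lane (2, used for E14.5, against 3).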

Additional observations from a re-analysis of the deposited data

How the results depend on the processing

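The 745 higher and 116 lower genes became 273 and 40 with a pseudocount of 5 in place of 1, 1491 and 1418 with the adjusted p alone, and 198 and 17 with limma's treat at a fold of 1.5. A common upper quartile gave 63 lower genes, with the median of all genes at 0.08 in place of -0.02 and 93.2% in place of 86.5% of calls in the higher direction. Leaving out 1 animal gave 461 (without E16.5 replicate 1) to 685 higher and 81 to 215 (without E16.5 replicate 2) lower genes.

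The difference in change between TGFβ3-/- and WT was called for 0 genes, for 2 with a pseudocount of 0.1, for 1 with a common median, for 1 with the second lane alone, and for 0 to 1 without 1 animal. The difference from TGFβ3+/- was called for 0, for 1 with the second lane alone, for 1 with the highest locus of a gene, and for 0 to 1 without 1 animal. E15.5 against E14.5 went from 231 calls to 382 (pseudocount 0.1), 82 (pseudocount 5), 547 (adjusted p alone) and 16 (treat), and to 37 to 94 without 1 animal. E16.5 against E15.5 went from 21 to 11, 10, 4 (at least 5 FPKM), 7 (complete genes only), 2 (treat) and 107 (no locus counted as 0, chosen after seeing the data), and to 4 to 78 without 1 animal.

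Under treat the called members were 8 of the osteoblast list, 3 collagens, 4 proteoglycan and elastic fibre genes, 1 skeletal muscle gene, 8 cornified, 1 basal, 6 macrophage and 2 other leukocyte genes, and 0 palatal mesenchyme genes. The adjusted p alone gave 9 basal, 19 macrophage and 12 other leukocyte genes. A pseudocount of 5 gave 3 macrophage genes and one of 0.1 gave 11 other leukocyte genes. Complete genes only gave 8 cornified and 4 airway genes, and no locus as 0 gave 17 airway genes. The muscle count of 11 was 7 with the first lane, the second lane or the highest locus. Without 1 animal the ranges were 6 to 12 collagens, 6 to 11 proteoglycan genes, 1 to 8 muscle, 2 to 8 basal, 4 to 7 other leukocyte and 4 to 5 palatal mesenchyme genes, and 12 to 13 osteoblast, 9 to 12 cornified, 9 to 11 airway and 8 to 14 macrophage genes.

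With the replicate number as a block there were 706 higher and 110 lower genes, 14 calls of E16.5 against E15.5 and 7 muscle genes. The numbers do not pair the animals, since the deviations of same-numbered animals correlated at 0.0452, -0.036 and 0.0872 between ages. Over 157 named called genes and 3229 combinations with a setting, 2810 kept direction and call, 419 lost the call and 0 changed sign, and 52 genes were called under every setting that gave a value. These genes were chosen for large called differences, so a change of sign was unlikely in advance. The adjusted p alone could not lose a call by its rule. Without E16.5 replicate 1, 55 of 156 lost the call. Where a count moved, the cause was not tested. With 2 animals a group, no counts and lanes confounded with age, genes under 1 FPKM and small differences cannot be judged.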

Other observations

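Signalling genes outside the TGFβ pathway moved in both directions. The list counts of this section stand beside 5.88% higher and 0.915% lower over all genes tested. No test of a list was run, so a count of 1 or 2 singles out no list. Of 31 tested Wnt pathway genes 5 were higher and 2 lower. The secreted inhibitors Sfrp4, Wif1 and Notum were at 1.85 and 2.44 FPKM at E14.5 and 8.51 and 7.37 at E16.5 (1.51, adjusted p = 0.00331), 14.8 and 7.49 FPKM at E14.5 and 32.0 and 30.3 at E16.5 (1.47, adjusted p = 0.0125) and 1.77 and 1.25 FPKM at E14.5 and 4.50 and 4.15 at E16.5 (1.09, adjusted p = 0.00346). The ligand Wnt10a and the nuclear factor Tcf7 rose by 1.06 (adjusted p = 0.00528) and 1.03 (adjusted p = 0.00377), whereas the receptor Fzd2 was at 54.0 and 54.1 FPKM at E14.5, 33.9 and 38.2 a day later and 25.5 and 25.3 at E16.5 (log2 difference -1.06, standard error 0.14, adjusted p = 0.000674) and the ligand Wnt5a at 59.0 and 23.6 FPKM at E14.5 and 10.6 and 17.2 at E16.5 (-1.40, adjusted p = 0.0449). Of 17 retinoic acid pathway genes 2 were higher and 2 lower. Aldh1a1, an enzyme that makes retinoic acid, was at 1.26 and 0.737 FPKM at E14.5, 12 and 12.1 a day later and 9.45 and 14.6 at E16.5 (2.69, adjusted p = 0.00741), and Aldh1a2, another such enzyme, went the other way at 45.3 and 67.6 FPKM at E14.5, 32.0 and 33.0 a day later and 23.7 and 27.4 at E16.5 (-1.09, adjusted p = 0.0385). Crabp1, a binding protein for retinoic acid, was at 195 and 169 FPKM at E14.5 and 95.4 and 76.6 at E16.5 (-1.08, adjusted p = 0.02). Of 13 hedgehog genes 1 was higher, the inhibitor Hhip at 1.92 and 1.95 FPKM at E14.5 and 5.39 and 5.27 at E16.5 (1.11, adjusted p = 0.00504).

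Genes that glucocorticoids induce had 6 of 15 tested members higher and 0 lower. They were Cdkn1a, described above, Lcn2, a siderophore-binding protein, the metallothioneins Mt1 and Mt2, Klf9, a zinc finger factor, and Zbtb16, a repressor. Lcn2 had a value in only 1 animal at E14.5. Mt1 was at 19.2 and 12.7 FPKM at E14.5, 34.1 and 41.8 a day later and 57.2 and 63.5 at E16.5 (log2 difference 1.88, standard error 0.27, adjusted p = 0.00107) and Klf9 at 1.56 and 1.65 FPKM at E14.5, 2.37 and 3.47 a day later and 4.39 and 5.15 at E16.5 (log2 difference 1.15, standard error 0.15, adjusted p = 0.000657). Of 19 genes for MHC class I and the interferon response 4 were higher, 0 lower and 13 passed the adjusted p in the higher direction. Over all 12680 genes tested, 1491 passed in that direction. H2-D1, a class I antigen-presenting molecule, was at 5.51 and 5.33 FPKM at E14.5, 10.4 and 12.1 a day later and 18.1 and 16.7 at E16.5 (log2 difference 1.52, standard error 0.13, adjusted p = 7.58e-05). Of 12 fat cell and lipid genes 3 were higher, among them Fabp4, a fatty acid carrier, at 1.65 and 3.44 FPKM at E14.5, 9.88 and 11.2 a day later and 19.6 and 23.0 at E16.5 (2.70, adjusted p = 0.000472) and Car3, a carbonic anhydrase of fat and muscle, at 1.93 and 3.67 FPKM at E14.5, 17.6 and 20.0 a day later and 23.8 and 33.4 at E16.5 (2.98, adjusted p = 0.00817). Of 24 imprinted genes 2 were higher, Dcn and Zim1, the last at 9.05 and 9.48 FPKM at E14.5, 17.9 and 18.8 a day later and 26.9 and 26.8 at E16.5 (log2 difference 1.44, standard error 0.23, adjusted p = 0.00187), and of 29 cytoplasmic ribosomal protein genes 1 was lower, Rpl11, whose loci covered 70.2% to 71.7% of its exonic bases.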
